A study of Rattus norvegicus with 32 samples.

Results

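Uteri of rats given bisphenol A (BPA) at 25 µg per kg body weight per day were compared with uteri of rats given 2.5 µg per kg body weight per day, the lowest step of a dose series. The comparison held the 4 RNA sequencing libraries of the group BPA 25 and the 4 of the group BPA 2.5, chosen by their labels, which are 8 of the 32 libraries measured. All genes were compared, and the difference was taken directly between the 2 doses, with no control library in it. The animals of both groups were Sprague-Dawley rats of the NCTR colony (Sprague-Dawley/CD23/NctrBR). BPA was given by gavage to dams from gestation day 6 until labor and directly to the pups from postnatal day 1, and uteri were collected at PND365, a postnatal age of a year. Vehicle animals (0.3% carboxymethylcellulose), shown here for reference only, make up 4 further libraries, and the rest of the series holds higher BPA doses and ethinyl estradiol. The series title ties low-dose BPA to endometrial cancer, and this step asks which genes differ between its lowest doses. Animals, litters, batches and stages of the estrous cycle are not named in the labels. The p-values therefore reflect only the spread among these libraries, which may in part be technical.

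BPA is a building block of polycarbonate plastic and a weak ligand of estrogen receptors. The uterus is a layered organ: smooth muscle of the myometrium surrounds a stroma in which luminal and glandular epithelium lie. Estrogen acts through the receptor encoded by Esr1, raises progesterone receptor and growth factors such as IGF-1, and drives growth of the epithelium, which changes over the estrous cycle. Motile cilia, built on an axoneme of microtubules and dynein arms, occur on scattered cells of the uterine lining and are abundant in the adjoining oviduct. Stratified epithelium with basal keratins is typical of cervix and vagina. The mitochondrial respiratory chain and the ribosome are assembled from many small subunits, most of them encoded by short, highly expressed nuclear genes.

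Total counts lay between 13098736 and 14769896 in the BPA 2.5 libraries and between 11818451 and 16131148 in the BPA 25 libraries. Levels are given as CPM, counts brought to one library size by scaling, and 3 counts are worth at most 0.254 CPM in these 8 libraries. Markers of the labelled tissue were high in all 8: the 17 smooth muscle genes summed to 13700 to 33200 CPM, the 22 stroma and matrix genes to 11600 to 36200 CPM and the 15 simple epithelium genes to 770 to 3160 CPM. Libraries 1 and 3 of BPA 2.5 stood apart. Their rank correlation with each other was 0.983, against 0.905 to 0.934 with the other libraries of their dose. Their motile cilia genes summed to 1450 and 1020 CPM, against 108 and 105 CPM in libraries 2 and 4, 133 to 255 CPM in BPA 25 and 64.9 to 81.6 CPM in the vehicle libraries. They also had the lowest sums of smooth muscle genes (13700 and 15200 CPM, against 26600 and 33200 CPM in libraries 2 and 4) and of stroma genes (11600 and 13800 CPM, against 29400 and 25000 CPM). Results that rest on these libraries are therefore given with and without them.

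Of 13312 genes tested, 2743 (20.6%) passed an adjusted p of 0.05: 1268 (9.53%) rose and 1475 (11.1%) fell from BPA 2.5 to BPA 25. The change was at least 2-fold in 274 of the genes that rose and in 482 of those that fell. Other tools called more of all genes tested: DESeq2 24.2% (1561 higher, 1654 lower) and limma voom 39.3% (2274 higher, 2954 lower). List counts from these tools are to be read against those shares. All 4 libraries of one dose lay above all 4 of the other for 1045 genes higher at BPA 25 (7.85%) and 1057 lower (7.94%). The size of the response depended on which libraries and groups entered the fit. The spread was estimated over all 8 groups; with the spread taken from these 2 groups alone, 197 genes passed, 120 higher and 77 lower. Without BPA 2.5 libraries 1 and 3, 1041 genes (7.7%) passed, 627 higher (4.64%) and 414 lower (3.06%), and 833 of the 2743 passed again in the same direction. Both restrictions together left 14 genes. The count was 1625 without BPA 2.5 library 3 and 1520 without BPA 25 library 2, and 1122 of the 2743 calls held whichever single library was left out.

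**Figure D1:**
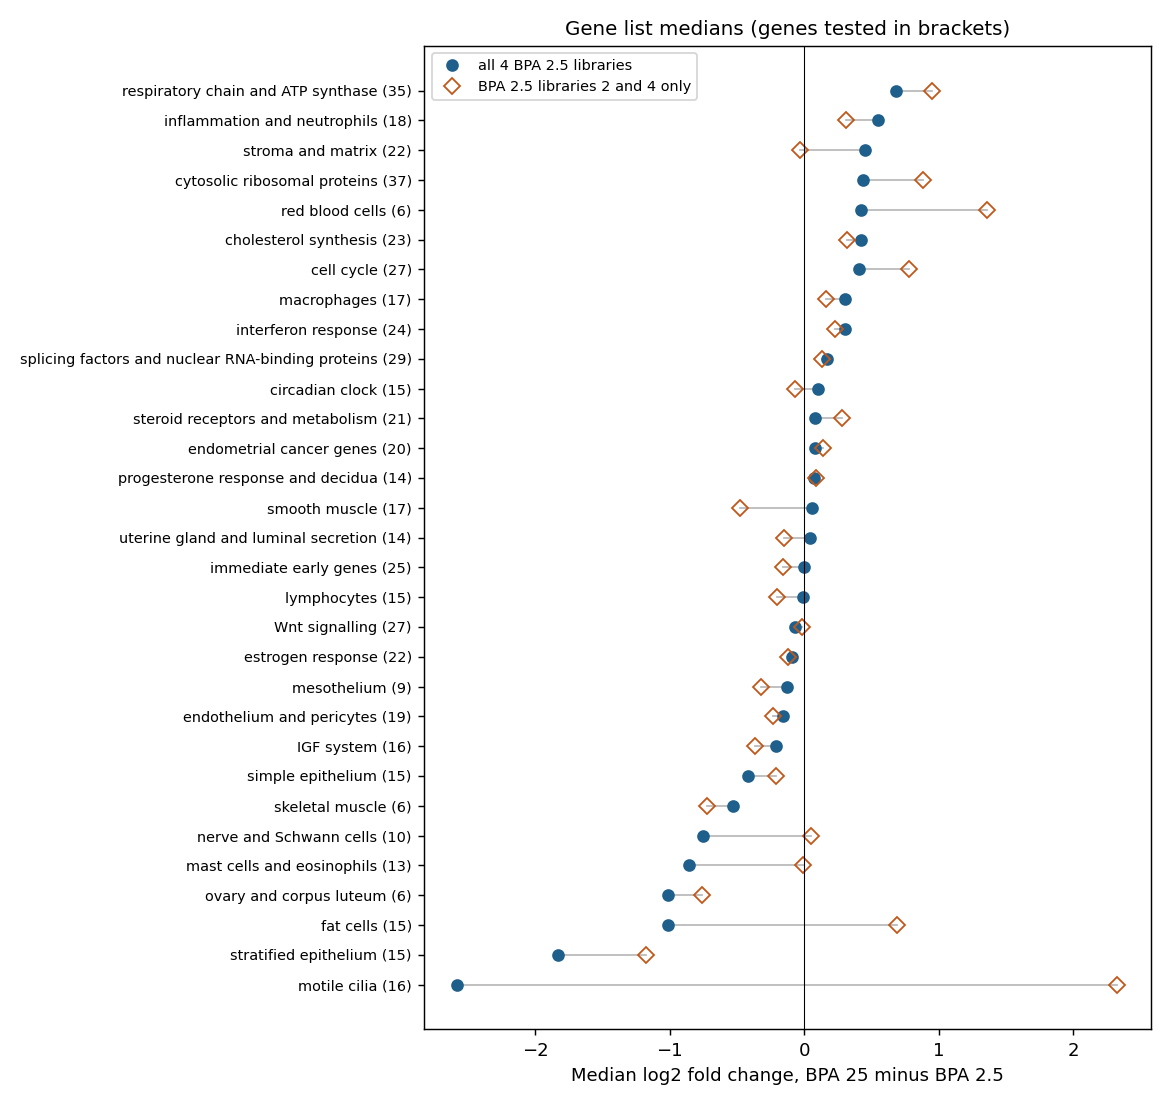
Median log2 fold change (BPA 25 minus BPA 2.5, horizontal axis) of each gene list with at least 5 tested genes, with all 4 BPA 2.5 libraries (filled circles) and with BPA 2.5 libraries 2 and 4 only (open diamonds). The respiratory chain list lies at 0.68 and 0.95 and the cytosolic ribosomal list at 0.44 and 0.88, while the motile cilia list lies at -2.58 and 2.33.

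Genes of oxidative phosphorylation were higher at BPA 25. Of 35 tested genes of the respiratory chain and ATP synthase, 20 rose and 1 fell, where 9.53% and 11.1% of all genes did, and their median log2 fold change was 0.68 against -0.08 over all genes tested. Without BPA 2.5 libraries 1 and 3, 18 rose and 0 fell, with a median of 0.95 against 0 over all genes tested. Cox7c, a small subunit of cytochrome c oxidase, was at 88, 91.5, 103 and 41.5 CPM in the 4 BPA 2.5 libraries and at 285, 313, 422 and 334 CPM in the 4 BPA 25 libraries. The doses did not overlap, the lowest BPA 25 library lying above every BPA 2.5 library, and Cox7c rose by 2.06 on the log2 scale (SE 0.30, adjusted p = 0.00035). The vehicle libraries lay between 144 and 299 CPM, above all BPA 2.5 libraries.

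Ndufb6, an accessory subunit of complex I, was at 7.41, 5.23, 7.46 and 8.16 CPM at BPA 2.5 and at 21.2, 30.5, 41.1 and 31.7 CPM at BPA 25 (log2 fold change 2.14 with SE 0.37, adjusted p = 0.00069). Atp5mg, a membrane subunit of ATP synthase, went from 93.2, 131, 103 and 41 CPM to 272, 325, 423 and 254 CPM (log2 fold change 1.79 with SE 0.29, adjusted p = 0.00056). Cox7b, another cytochrome c oxidase subunit, was at 14.2 to 34.1 CPM and then at 41.7 to 74.5 CPM (log2 fold change 1.49 with SE 0.28, adjusted p = 0.0013). None of the 3 genes overlapped between doses, and each passed whichever library was left out. Without BPA 2.5 libraries 1 and 3 the log2 fold changes were 2.23 for Ndufb6, 1.90 for Atp5mg and 1.94 for Cox7b. Prdx3, a mitochondrial peroxidase outside the list that was chosen after its values were seen, rose from 39.3 to 49 CPM up to 67.5 to 148 CPM (log2 fold change 1.25 with SE 0.18, adjusted p = 0.00035).

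The list was not uniform. Atp5po, the stalk subunit that ties the soluble and membrane parts of ATP synthase together, rose by 0.68 on the log2 scale (SE 0.18, adjusted p = 0.011), from 91.7, 62.4, 110 and 63 CPM to 100, 126, 158 and 142 CPM, and its libraries overlapped. Uqcrc1, a core protein of complex III, was the 1 gene of the list that fell, from 135, 124, 130 and 155 CPM to 81.7, 93.7, 98.7 and 105 CPM with no overlap (log2 fold change -0.52 with SE 0.15, adjusted p = 0.016). Its adjusted p was 0.057 without BPA 2.5 library 4, 0.055 without BPA 25 library 1, 0.060 without BPA 25 library 2 and 0.071 without BPA 2.5 libraries 1 and 3. NRF1 is a transcription factor known for binding promoters of respiratory chain genes, and the core of its site is GCATGCG. On either strand, these letters stood in 7 of the 32 promoters of the list that RefSeq's table (assembly GRCr8, 250 bases before to 50 after the start) holds, or 21.9%, and in 601 of the 10688 promoters of tested genes, or 5.62%. Among the 7 genes were Atp5mg and Atp5po, which rose, and Uqcrc1, which fell. Their promoters are shown because the letters stand on both sides of the change, with the matches of both strands, which overlap, in capitals. They lie on chr8:54130358-54130657 (minus strand) for Atp5mg, chr11:44657434-44657733 (minus) for Atp5po and chr8:118467973-118468272 (plus) for Uqcrc1.
Atp5mg: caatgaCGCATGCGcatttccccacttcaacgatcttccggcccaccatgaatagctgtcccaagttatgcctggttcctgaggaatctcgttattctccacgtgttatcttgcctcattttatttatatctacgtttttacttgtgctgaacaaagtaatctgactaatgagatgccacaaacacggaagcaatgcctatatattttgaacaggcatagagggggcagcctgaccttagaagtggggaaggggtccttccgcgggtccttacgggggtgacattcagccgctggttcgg
Atp5po: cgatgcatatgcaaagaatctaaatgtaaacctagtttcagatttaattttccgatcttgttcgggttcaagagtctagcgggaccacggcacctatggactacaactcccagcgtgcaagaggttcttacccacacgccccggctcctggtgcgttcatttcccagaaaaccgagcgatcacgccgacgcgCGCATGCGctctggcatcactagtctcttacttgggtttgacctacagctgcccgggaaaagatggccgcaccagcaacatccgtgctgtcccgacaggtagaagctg
Uqcrc1: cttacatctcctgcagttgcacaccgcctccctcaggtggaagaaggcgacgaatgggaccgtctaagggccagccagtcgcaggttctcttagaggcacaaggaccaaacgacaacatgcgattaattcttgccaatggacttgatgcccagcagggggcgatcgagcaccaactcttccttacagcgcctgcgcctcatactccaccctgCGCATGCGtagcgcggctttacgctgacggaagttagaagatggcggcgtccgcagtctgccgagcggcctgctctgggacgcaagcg

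Cytosolic ribosomal protein genes moved the same way. Of 37 tested genes of the list, 14 rose and 0 fell, with a median log2 fold change of 0.44. Without BPA 2.5 libraries 1 and 3, 18 rose and 0 fell, with a median of 0.88. Rps29, a protein of the small subunit, was at 286, 271, 371 and 155 CPM at BPA 2.5 and at 684, 901, 1090 and 1050 CPM at BPA 25, with no overlap (log2 fold change 1.79 with SE 0.37, adjusted p = 0.0019). Rps21, also of the small subunit, went from 60.4 to 145 CPM up to 294 to 424 CPM (log2 fold change 1.61 with SE 0.32, adjusted p = 0.0015). A pair of paralogs of ribosomal proteins moved more, Rpl22l1 on the list and Rps27l outside it. Rpl22l1, a relative of Rpl22, was at 50.3, 41.2, 56.1 and 20.3 CPM and at 125, 233, 182 and 203 CPM (log2 fold change 2.15 with SE 0.34, adjusted p = 0.00051). Rps27l, a relative of Rps27, was at 16.8, 18.1, 26.9 and 17.8 CPM and at 68, 112, 98.8 and 87.4 CPM (log2 fold change 2.20 with SE 0.33, adjusted p = 0.00047). Neither gene overlapped between the doses. Ribosomal protein genes have many near-identical processed copies, and how reads were shared among copies is not given, so their levels are uncertain.

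**Figure D2:**
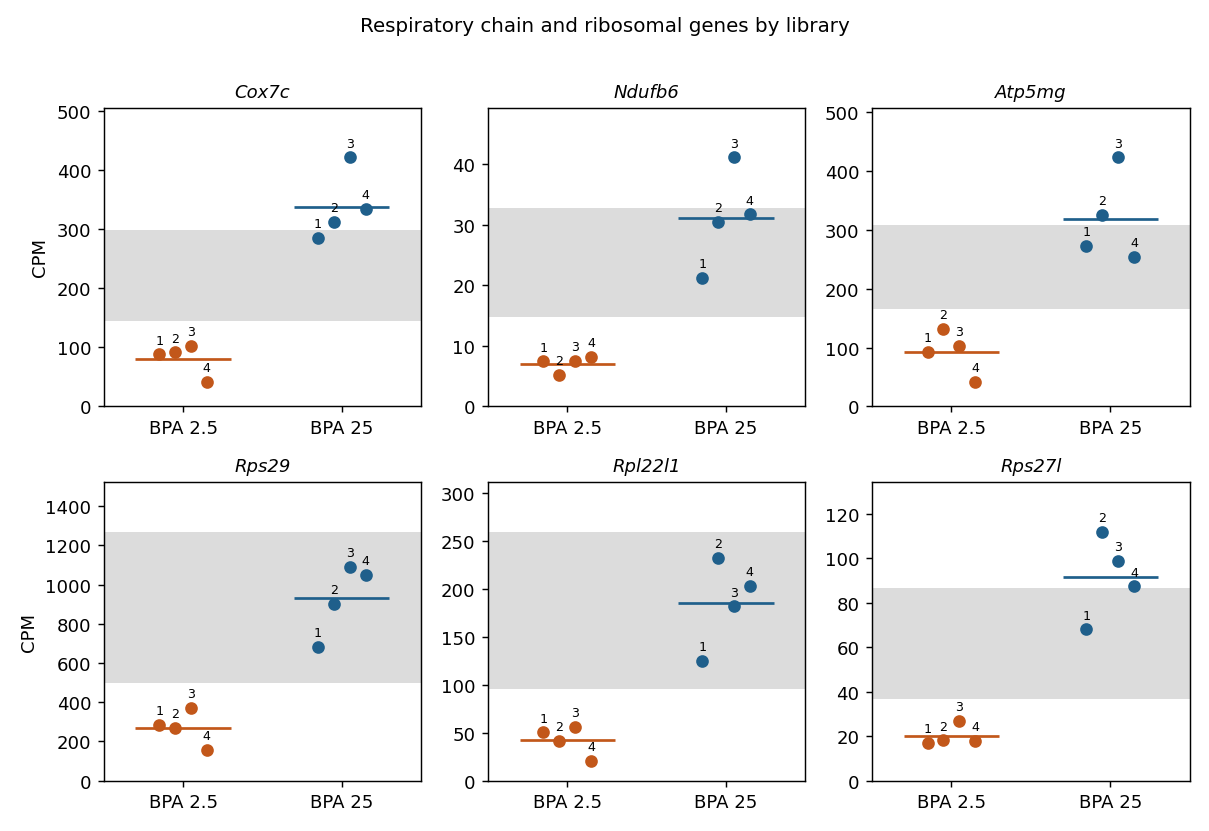
Level (CPM, vertical axis from 0) of 3 respiratory chain and ATP synthase genes and 3 ribosomal protein genes in the 4 BPA 2.5 and 4 BPA 25 libraries, numbered by library; horizontal lines are group means and the grey band spans the 4 vehicle libraries. In every panel the 4 BPA 25 libraries lie above the 4 BPA 2.5 libraries.

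Families collected by symbol, after the results were known, show how far this pattern reached and are given as a description. Of the 81 tested cytosolic ribosomal protein symbols 29 rose and 2 fell, of 47 proteasome subunits 16 rose and 3 fell, and of 23 Lsm and Snrp genes of the splicing machinery 6 rose and 0 fell. Other families went both ways: of 67 mitochondrial ribosomal proteins 13 rose and 7 fell, and of 29 Mediator subunits 4 rose and 7 fell, where 9.53% and 11.1% of all genes did. Lsm5, an RNA-binding ring protein, was at 8.75, 3.39, 8.2 and 1.78 CPM at BPA 2.5 and at 13.9, 24.8, 34.9 and 19.2 CPM at BPA 25 (log2 fold change 2.07 with SE 0.40, adjusted p = 0.0013), and without libraries 1 and 3 its log2 fold change was 3.18. The span of each gene in the genome was set beside these results as a description. Genes were split by span into 4 equal sets. In the shortest (median 4.72 kb) the median log2 fold change was -0.18, 8.22% rose and 12.3% fell; in the longest (median 103 kb) it was 0.03, 9.13% rose and 6.9% fell. Spans include introns and the sets pool all genes, so these values say nothing of transcript length, whose part was not tested.

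Motile cilia genes gave opposite directions depending on the BPA 2.5 libraries used. Of 16 tested cilia genes 6 fell and 0 rose, where 11.1% and 9.53% of all genes did, and their median log2 fold change was -2.58. Yet no cilia gene separated the doses, where 7.85% of all genes did with BPA 25 higher and 7.94% with BPA 25 lower. Foxj1, the master regulator of motile ciliogenesis, was at 95.8, 0.308, 73.6 and 0.892 CPM in BPA 2.5 libraries 1 to 4 and at 9.16, 4.02, 7.31 and 6 CPM in BPA 25. The 4 BPA 25 libraries lay below libraries 1 and 3 of BPA 2.5 and above libraries 2 and 4, and above the vehicle libraries, which reached at most 0.862 CPM. The log2 fold change of Foxj1 was -2.69 (SE 1.13, adjusted p = 0.089) with all libraries and 3.44 (adjusted p = 0.12) without BPA 2.5 libraries 1 and 3, while it passed without BPA 2.5 library 2 (-3.10, adjusted p = 0.028). Fewer ciliated cells and less RNA per cell cannot be told apart in bulk tissue.

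Spag6l, a protein of the central pair of the axoneme, was at 110, 0.231, 75.9 and 0.319 CPM at BPA 2.5 and at 18.8, 10.9, 11.8 and 7.39 CPM at BPA 25. Its log2 fold change was -1.93 (SE 1.09, adjusted p = 0.21) with all libraries and 5.44 (adjusted p = 0.022) without libraries 1 and 3. Sntn, a protein of the ciliary tip, had 0 counts in BPA 2.5 libraries 2 and 4, 23.5 and 17.4 CPM in libraries 1 and 3, and 4.58, 2.25, 4.25 and 2.93 CPM at BPA 25. Against a floor of 3 counts per library in libraries 2 and 4, BPA 25 was at least 16.4-fold higher. Without libraries 1 and 3 these were the 2 of 16 cilia genes that rose, 0 fell, and the median was 2.33, also with Sntn at its bound. In that fit 4.64% of all genes tested rose and 3.06% fell.

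Odad1, a docking protein of the outer dynein arm, fell from 51.5, 1.08, 42.7 and 0.83 CPM to 1.7, 1.29, 4.04 and 1.32 CPM (log2 fold change -3.52 with SE 0.97, adjusted p = 0.012). Here too libraries 1 and 3 carried the difference: the log2 fold change was 1.14 (adjusted p = 0.48) without both, and the adjusted p was 0.052 without library 1. Dnai2, an intermediate chain of the dynein arm, fell from 51.6, 0.77, 43.2 and 0.382 CPM to 3.65, 2.99, 3.41 and 1.68 CPM (log2 fold change -3.03 with SE 1.03, adjusted p = 0.036). Its call was lost without BPA 2.5 library 1 or 3 (adjusted p = 0.14 and 0.12) and without any one BPA 25 library (adjusted p between 0.063 and 0.093), and without libraries 1 and 3 together the log2 fold change was 2.35 (adjusted p = 0.19). Rfx2, a transcription factor of the RFX family that acts with Foxj1, was at 49.4, 13.4, 43.6 and 18.9 CPM and at 19.2, 6.47, 15 and 9.95 CPM (log2 fold change -1.31 with SE 0.43, adjusted p = 0.029). Rfx2 kept its direction without libraries 1 and 3 (-0.34, adjusted p = 0.70), and its call was lost without library 1 (0.13) or 3 (0.11) of BPA 2.5 and library 2 (0.12) or 4 (0.084) of BPA 25.

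RFX factors bind the X-box, and GTTGCCA is the core of one of its arms. On either strand, these letters stood in 3 of the 11 motile cilia promoters held by the RefSeq table (27.3%) and in 440 of 10688 promoters of tested genes (4.12%). The 3 promoters are shown because their genes share the library pattern given here, with the matching letters in capitals. They lie on chr15:13956041-13956340 for Sntn, chr6:31779207-31779506 for Drc1 and chr10:57479072-57479371 for Tekt1 of GRCr8, all on the minus strand, and each runs toward the gene.
Sntn: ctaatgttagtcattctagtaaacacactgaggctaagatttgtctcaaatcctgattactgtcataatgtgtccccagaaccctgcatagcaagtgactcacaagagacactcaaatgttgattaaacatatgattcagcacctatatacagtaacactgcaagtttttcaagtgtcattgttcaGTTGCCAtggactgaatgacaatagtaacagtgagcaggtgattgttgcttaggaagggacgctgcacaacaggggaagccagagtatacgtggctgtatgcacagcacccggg
Drc1: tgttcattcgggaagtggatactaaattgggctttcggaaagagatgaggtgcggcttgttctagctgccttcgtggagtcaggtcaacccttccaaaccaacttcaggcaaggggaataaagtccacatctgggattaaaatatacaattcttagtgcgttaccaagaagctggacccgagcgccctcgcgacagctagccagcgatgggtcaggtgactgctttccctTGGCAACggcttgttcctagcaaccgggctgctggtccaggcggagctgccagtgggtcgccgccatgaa
Tekt1: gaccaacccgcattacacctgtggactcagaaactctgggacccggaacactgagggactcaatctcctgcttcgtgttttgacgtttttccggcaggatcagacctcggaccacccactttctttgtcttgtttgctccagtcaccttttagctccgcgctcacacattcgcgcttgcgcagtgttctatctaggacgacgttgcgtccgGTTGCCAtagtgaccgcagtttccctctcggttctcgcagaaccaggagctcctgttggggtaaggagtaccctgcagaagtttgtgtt
The match began 64 bases before the start in Sntn, 20 in Drc1 and 39 in Tekt1. Drc1, of the nexin-dynein regulatory complex, was at 44.9, 0.539, 35 and 0.574 CPM at BPA 2.5 and at 3.73, 1.43, 5.85 and 1.98 CPM at BPA 25. It did not pass with all libraries (log2 fold change -2.64, adjusted p = 0.060), passed without BPA 2.5 library 2 (0.016) or 4 (0.030), and turned to 2.54 (adjusted p = 0.17) without libraries 1 and 3. Tekt1, a filament protein of the axoneme, fell from 66.7, 1.54, 50.4 and 1.72 CPM to 5.6, 2.79, 5.71 and 3 CPM (log2 fold change -2.82 with SE 0.90, adjusted p = 0.027). Its call was lost without BPA 2.5 library 1 (0.13) or 3 (0.091) or BPA 25 library 2 (0.088) or 4 (0.073), and without libraries 1 and 3 together its log2 fold change was 1.40 (adjusted p = 0.36). In both genes every BPA 25 library lay between the high and the low pair of BPA 2.5 libraries.

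**Figure D3:**
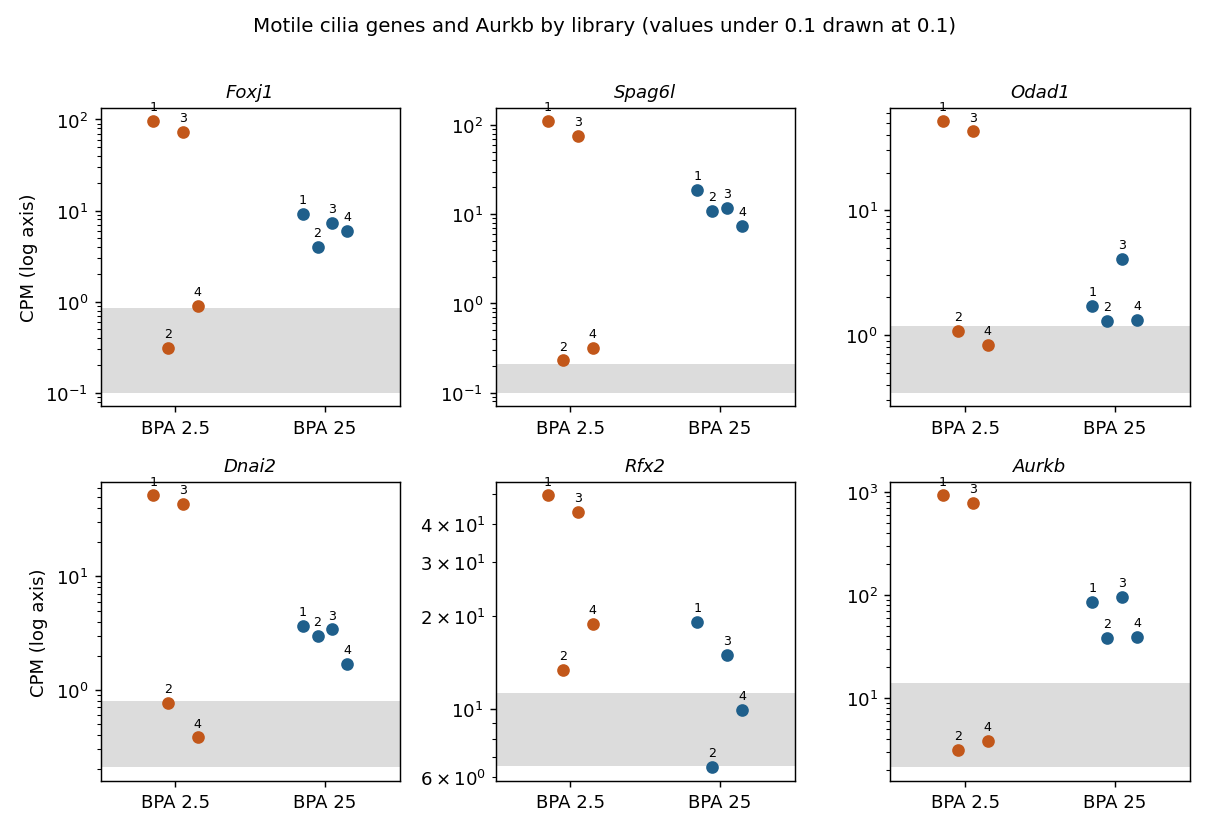
Level (CPM, log axis) of 5 genes of motile cilia and of Aurkb in the 4 BPA 2.5 and 4 BPA 25 libraries, numbered by library, with values under 0.1 drawn at 0.1; the grey band spans the 4 vehicle libraries. BPA 2.5 libraries 1 and 3 lie at the top of every panel.

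Of 49 tested axonemal dynein and Cfap genes, a family collected by symbol after the results were known, 21 fell and 0 rose. Without BPA 2.5 libraries 1 and 3, 0 fell and 5 rose, with a median of 1.40, or 1.23 with the 6 genes that had no count in libraries 2 and 4 at their bound. Of all genes tested 11.1% fell and 9.53% rose, or 3.06% and 4.64% without these libraries. Aurkb, the kinase of the chromosomal passenger complex, followed the same libraries, at 921, 3.16, 779 and 3.82 CPM at BPA 2.5 and 85.5, 38.5, 96.6 and 39.5 CPM at BPA 25. Its log2 fold change was -2.71 (SE 1.07, adjusted p = 0.070), or 4.23 (adjusted p = 0.020) without libraries 1 and 3, and it passed without library 2 (0.016) or 4 (0.031). Aqp4, a water channel, was at 145, 1.39, 87.3 and 1.34 CPM and at 32.8, 13.8, 20.7 and 9.73 CPM, with a log2 fold change of -1.61 (adjusted p = 0.24) or 3.82 (adjusted p = 0.037). The summed level of oviduct secretory epithelium markers was also highest at BPA 2.5 in libraries 1 and 3, at 238 and 226 CPM against 127 and 182 CPM in libraries 2 and 4. It was 110, 166, 254 and 127 CPM at BPA 25 and 81.6 to 183 CPM in the vehicle libraries. Pax8, a transcription factor of oviduct epithelium, was at 58.6, 21.8, 57.3 and 39.8 CPM and at 12.3, 32.1, 23.7 and 21.4 CPM (log2 fold change -0.99 with SE 0.37, adjusted p = 0.054; 0.014 without BPA 2.5 library 2 and 0.56 without libraries 1 and 3), and it overlaps a long non-coding RNA in the RefSeq table. Of the 6 genes of the list 4 could be tested and 0 passed in edgeR (1 had an unadjusted p under 0.05, and DESeq2 called 1 and limma voom 2, all lower), and the other 2, Ovgp1 and Muc16, were not analysed here. Over all genes tested DESeq2 called 24.2% and limma voom 39.3%. The part of oviduct tissue in the cilia result was not tested.

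**Figure D4:**
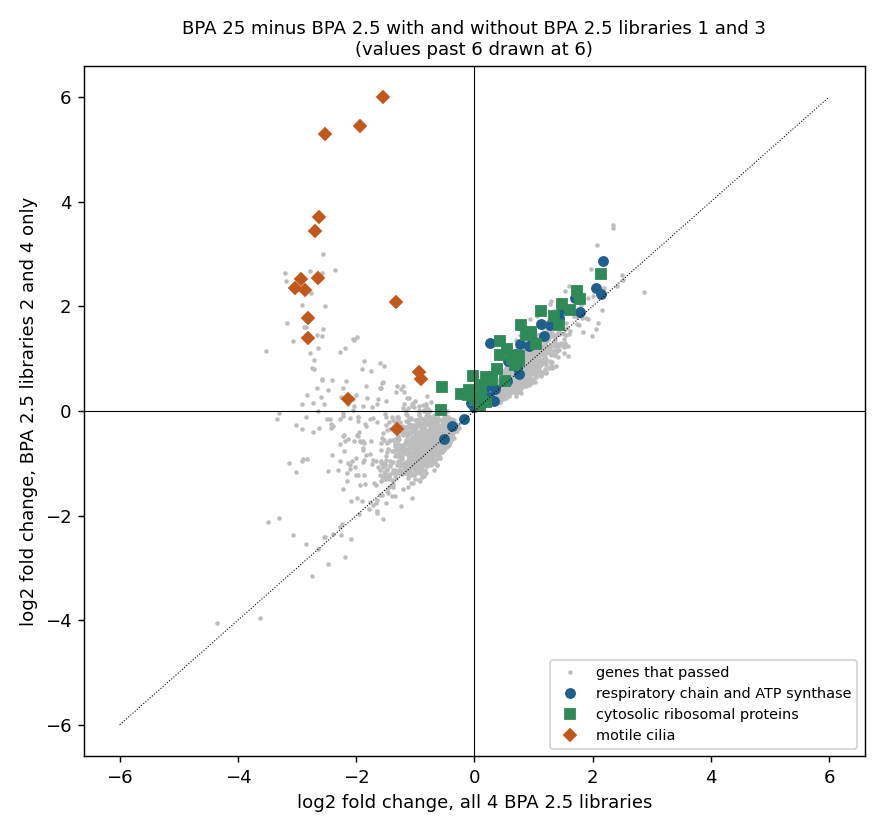
Log2 fold change of BPA 25 minus BPA 2.5 with all libraries (horizontal axis) against that with BPA 2.5 libraries 2 and 4 only (vertical axis), for genes that passed (grey points) and for all tested members of 3 lists; the dotted line marks equal values and values past 6 are drawn at 6. Respiratory chain and ribosomal genes mostly lie near or above the dotted line, and 15 of 16 motile cilia genes lie below 0 on one axis and above 0 on the other.

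The basal keratin gene Krt5 fell at BPA 25, and it was the 1 gene of the stratified epithelium list to pass. Krt5, a keratin of basal cells, was at 11, 24.4, 15 and 20 CPM at BPA 2.5 and at 0.933, 2.31, 1.39 and 0.951 CPM at BPA 25, while the vehicle libraries lay between 0 and 0.172 CPM. All 4 BPA 2.5 libraries lay above all others, and Krt5 fell by 3.63 on the log2 scale (SE 1.13, adjusted p = 0.024). The adjusted p was 0.058, 0.052 and 0.063 without BPA 25 library 1, 2 or 4, and 0.052 without BPA 2.5 libraries 1 and 3 (log2 fold change -3.95). Krt14, the usual partner of Krt5, was at 2.92, 3.23, 3.2 and 4.02 CPM and at 0.679, 0.272, 0.278 and 1.17 CPM, also without overlap, but did not pass (log2 fold change -2.47 with SE 1.12, adjusted p = 0.11).

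Krt15, another basal keratin, was at 21, 21.8, 27.9 and 20.5 CPM and at 2.46, 2.86, 6.26 and 2.78 CPM (log2 fold change -2.66 with SE 1.13, adjusted p = 0.092). Calml3, an epithelial calmodulin-like protein, was at 1.66 to 9.76 CPM and at 0.585 to 1.43 CPM (adjusted p = 0.092), and Serpinb2, a protease inhibitor of squamous cells, at 1.15 to 2.62 CPM and at 0.0732 to 0.476 CPM (adjusted p = 0.12). Of the 15 tested genes of the list 1 fell and 0 rose, and in 7 the BPA 25 libraries all lay below the BPA 2.5 libraries, where 7.94% of all genes did so. The median log2 fold change was -1.83, and -1.18 without libraries 1 and 3. Of the 15 genes 11 lay below 0 and 4 above. Those above were Serpinb5 (log2 fold change 1.08), Dsg3 (0.76), Sprr1a (0.60) and Grhl3 (0.20), and none of them passed. The list's summed level did not separate the doses, at 83.3 to 93.1 CPM for BPA 2.5 and 26 to 106 CPM for BPA 25, against 37.7 to 80.3 CPM in the vehicle libraries. Of 15 genes of simple epithelium 2 fell and 0 rose (median -0.42), and without BPA 2.5 libraries 1 and 3, 0 fell and 0 rose (median -0.21). Over all genes tested 11.1% fell and 9.53% rose, or 3.06% and 4.64% without these libraries.

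None of 22 tested estrogen response genes passed in edgeR, 0 rising and 0 falling, and their median log2 fold change was -0.09, close to the -0.08 of all genes. Of the 22, 8 lay above 0 and 14 below, where 44.7% and 55.3% of all genes did. At an unadjusted p of 0.05, 6 of the 22 passed. DESeq2 called 3, all higher (Igf1, Pgr and S100g), and limma voom called 5 higher, these 3 among them, and 1 lower. Over all 13312 genes tested DESeq2 called 1561 higher and 1654 lower, and limma voom 2274 higher and 2954 lower. Igf1, the growth factor through which estrogen drives uterine growth, was at 80.1, 105, 103 and 130 CPM at BPA 2.5 and at 100, 350, 212 and 254 CPM at BPA 25, against 237 to 702 CPM in the vehicle libraries. Only BPA 25 library 1 overlapped the BPA 2.5 range (log2 fold change 1.13 with SE 0.41, adjusted p = 0.052), and without that library the adjusted p was 0.024. Pgr, the progesterone receptor, was at 108, 122, 89.8 and 181 CPM and at 199, 268, 176 and 319 CPM (log2 fold change 0.94 with SE 0.35, adjusted p = 0.057), and it passed without BPA 2.5 library 4 (0.038) or BPA 25 library 3 (0.047). Other genes of the list went the other way. Ckb was at 435, 405, 460 and 878 CPM and at 184, 323, 379 and 431 CPM (log2 fold change -0.72 with SE 0.32, adjusted p = 0.099). Ltf (-1.73, adjusted p = 0.21) and Lcn2 (-1.07, adjusted p = 0.51) were also lower and did not pass.

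S100g, a calcium-binding protein induced by estrogen in the uterus, was at 42.1, 44.9, 101 and 203 CPM and at 56.6, 636, 45.2 and 773 CPM. BPA 25 libraries 2 and 4 lay in the vehicle range of 493 to 1070 CPM, and libraries 1 and 3 within the range of BPA 2.5 (log2 fold change 1.95 with SE 0.76, adjusted p = 0.068). S100g passed without BPA 2.5 library 4 (0.039), BPA 25 library 1 (0.035) or BPA 25 library 3 (0.030). The gene overlaps Ctps2 in the RefSeq table, and the use of strand in counting is not given. BPA 25 libraries 2 and 4 were also the most alike of the group (rank correlation 0.990) and had more simple epithelium signal, 2480 and 2570 CPM against 770 and 1670 CPM in libraries 1 and 3; the part of cycle stage or tissue makeup in these values was not tested. Esr1, the estrogen receptor, was at 130 to 177 CPM and at 114 to 167 CPM (log2 fold change -0.13 with SE 0.22, adjusted p = 0.72).

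Among 21 tested genes of steroid receptors and metabolism 1 rose and 2 fell, no more than the 9.53% and 11.1% of all genes, and without BPA 2.5 libraries 1 and 3, 0 rose and 1 fell. Sts, the sulfatase that frees estrone from its sulfate, fell from 27.9, 21.9, 28.8 and 31.4 CPM to 16, 9.94, 11.3 and 10.6 CPM, with no overlap (log2 fold change -1.20 with SE 0.24, adjusted p = 0.0014). It passed whichever library was left out and without BPA 2.5 libraries 1 and 3 (-1.14, adjusted p = 0.017), and the vehicle libraries lay at 11 to 14.7 CPM, the range of BPA 25. Akr1c14, a hydroxysteroid dehydrogenase, rose from 40.2, 78.4, 37.2 and 32.6 CPM to 121, 152, 66 and 126 CPM (log2 fold change 1.30 with SE 0.31, adjusted p = 0.0051), and its adjusted p was 0.091 without libraries 1 and 3. It belongs to a family of near-identical genes, so its level is uncertain.

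Igf2r, the receptor that clears IGF-2, was the 1 gene of 16 of the IGF system that passed. It fell from 564, 507, 432 and 353 CPM to 354, 277, 295 and 270 CPM, the lowest BPA 2.5 library overlapping the highest BPA 25 library (log2 fold change -0.63 with SE 0.16, adjusted p = 0.0062; 0.091 without BPA 2.5 libraries 1 and 3). Among 14 genes of progesterone response and decidua 2 fell and 0 rose, where 11.1% and 9.53% of all genes did, and 7 lay above 0 and 7 below. Both genes that fell belong to the hedgehog pathway, through which progesterone signals from epithelium to stroma. Gli1, its transcription factor, was at 42.4, 19.2, 43.4 and 30.6 CPM and at 15, 3.95, 20.5 and 7.32 CPM (log2 fold change -1.54 with SE 0.43, adjusted p = 0.014), and Ptch1, its receptor, at 82.4, 29.6, 69.8 and 38 CPM and at 29, 19.4, 41.8 and 19.5 CPM (log2 fold change -1 with SE 0.29, adjusted p = 0.016). Both were highest in BPA 2.5 libraries 1 and 3, and without these the adjusted p was 0.18 for Gli1 and 0.60 for Ptch1. The call of Gli1, which overlaps Arhgap9, was also lost without BPA 25 library 2 (0.062). That of Ptch1 was lost without BPA 2.5 library 1 (0.093) or 3 (0.070) and without BPA 25 library 2 (0.074) or 4 (0.062). Ihh, the hedgehog ligand on the list, did not pass (log2 fold change 0.56, adjusted p = 0.63). Its log2 fold change was 2.35 without BPA 2.5 libraries 1 and 3.

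**Figure D5:**
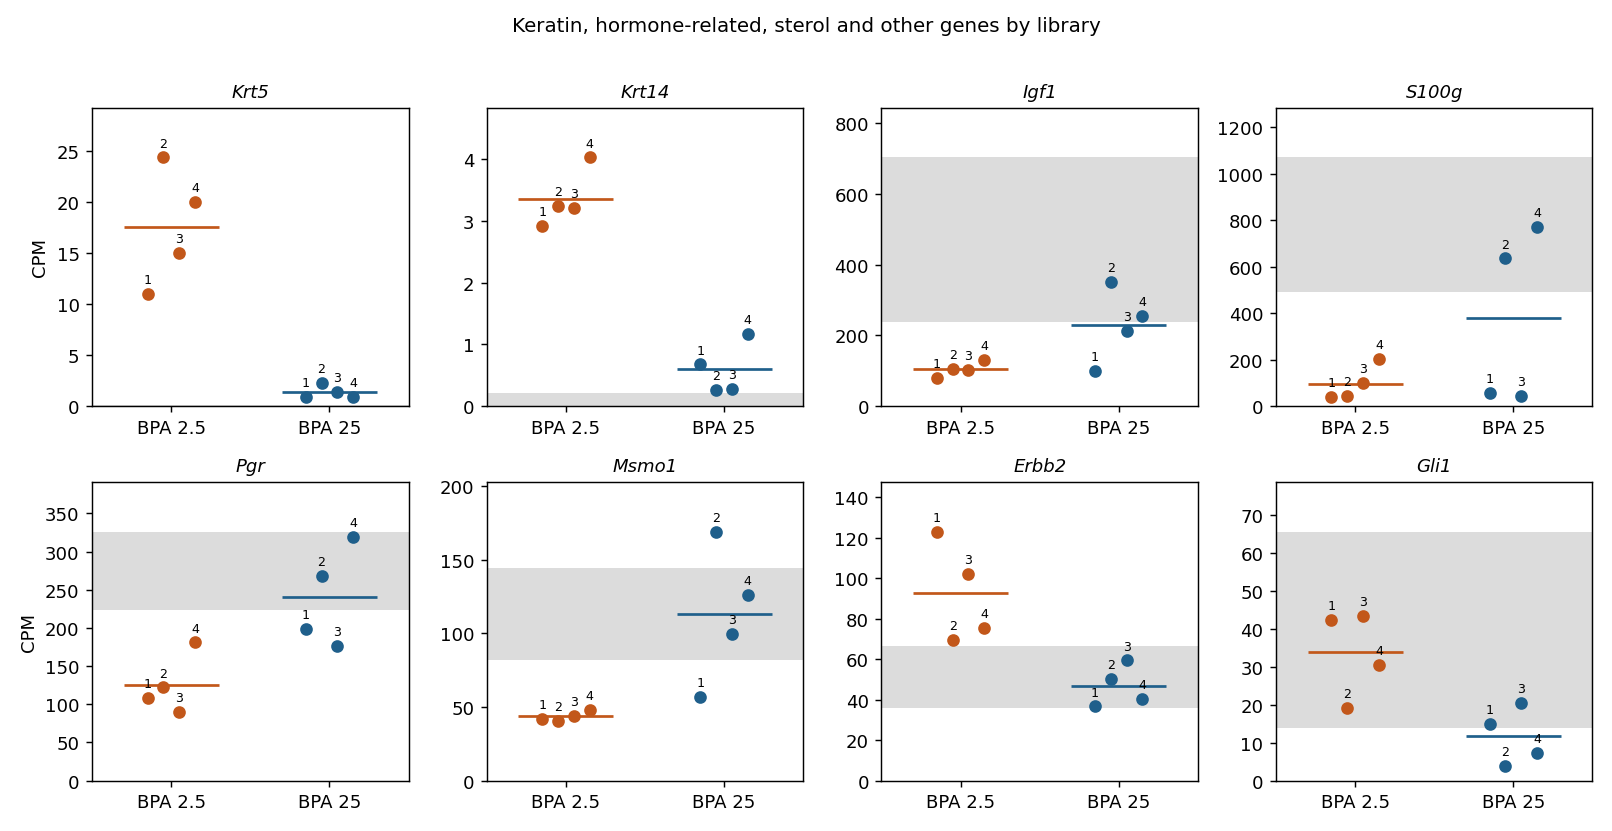
Level (CPM, vertical axis from 0) of 8 genes in the 4 BPA 2.5 and 4 BPA 25 libraries, numbered by library; horizontal lines are group means and the grey band, or a grey line at 0, spans the 4 vehicle libraries. Krt5, Krt14, Msmo1 and Erbb2 separate the doses, while S100g is high in BPA 25 libraries 2 and 4 and low in libraries 1 and 3.

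Of 23 tested genes of cholesterol synthesis 4 rose and 2 fell in edgeR, 5 and 2 in DESeq2 and 11 and 2 in limma voom. Over all genes tested 9.53% rose and 11.1% fell in edgeR, and DESeq2 called 24.2% and limma voom 39.3% in either direction. Above 0 lay 19 of the 23, with a median log2 fold change of 0.42. In edgeR 1 rose and 0 fell without BPA 2.5 libraries 1 and 3, with a median of 0.32. Msmo1, a sterol C4-methyl oxidase, was at 42, 40.6, 43.8 and 48.2 CPM at BPA 2.5 and at 56.8, 169, 99.5 and 126 CPM at BPA 25, without overlap (log2 fold change 1.37 with SE 0.25, adjusted p = 0.0011; 0.016 without BPA 2.5 libraries 1 and 3). Hmgcs1, the synthase that makes HMG-CoA, rose from 73.6, 90.7, 79.9 and 127 CPM to 87.6, 451, 165 and 244 CPM (log2 fold change 1.35 with SE 0.35, adjusted p = 0.0073). Idi1, the isopentenyl diphosphate isomerase, rose from 134, 348, 170 and 184 CPM to 172, 1400, 419 and 976 CPM (log2 fold change 1.83 with SE 0.49, adjusted p = 0.010). In each of the 3 genes BPA 25 library 2 was highest, library 4 next and library 1 lowest. Without library 2 the adjusted p was 0.072 for Hmgcs1 and 0.068 for Idi1, and without BPA 2.5 libraries 1 and 3 it was 0.11 and 0.14. Idi1 overlaps Wdr37 in the RefSeq table.

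The counts for smooth muscle and stroma depended on the tool. So did the share of all genes tested, at 20.6% in edgeR, 24.2% in DESeq2 and 39.3% in limma voom. Of 17 smooth muscle genes 1 rose and 2 fell in edgeR (median 0.06), with 1 and 2 in DESeq2 and 6 and 1 in limma voom, and without BPA 2.5 libraries 1 and 3, 0 rose and 3 fell (median -0.48). Cald1, an actin-binding regulator of contraction, rose from 310, 615, 307 and 519 CPM to 861, 783, 624 and 770 CPM (log2 fold change 0.79 with SE 0.21, adjusted p = 0.0087), and its adjusted p was 0.22 without libraries 1 and 3, its lowest. Lmod1, an actin nucleator of smooth muscle, fell from 185, 272, 219 and 332 CPM to 169, 141, 165 and 135 CPM (log2 fold change -0.72 with SE 0.21, adjusted p = 0.015). It passed without libraries 1 and 3 (-0.97, adjusted p = 0.015) but not without BPA 2.5 library 4 (0.073) or BPA 25 library 2 (0.062) or 4 (0.057). Of 22 stroma and matrix genes 1 rose and 0 fell in edgeR, 3 and 0 in DESeq2 and 11 and 1 in limma voom, and 17 of the 22 lay above 0 (median 0.45). The edgeR count was 1 and 0 without BPA 2.5 libraries 1 and 3, where 9 lay above 0 and the median was -0.03. That gene was Timp1 (log2 fold change 0.87 with SE 0.27, adjusted p = 0.045), which did not pass with all libraries (0.58, adjusted p = 0.053). With all libraries the gene that rose was Dcn, the proteoglycan decorin. It was at 2930, 6920, 2920 and 1980 CPM and at 8240, 9240, 5910 and 8000 CPM (log2 fold change 1.09 with SE 0.39, adjusted p = 0.048). That call was lost without any one library except BPA 2.5 library 2 and BPA 25 library 3 (adjusted p between 0.074 and 0.14), without BPA 2.5 libraries 1 and 3 (0.32) and without a filter on low counts.

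Few vessel, immune and fat genes passed in edgeR, where 9.53% of all genes tested rose and 11.1% fell. Of 19 genes of endothelium and pericytes 1 rose and 1 fell. Rgs5, a pericyte regulator of G protein signalling, rose from 14.4, 37.6, 16.1 and 23.1 CPM to 33.3, 55, 37.4 and 54.1 CPM (log2 fold change 0.98 with SE 0.27, adjusted p = 0.012), and its adjusted p was 0.24 without libraries 1 and 3. No gene passed in edgeR among 15 of lymphocytes, 13 of mast cells and eosinophils and 24 of the interferon response, where 1, 2 and 2 had an unadjusted p under 0.05, DESeq2 called 0, 0 and 0 and limma voom 0, 4 and 3. Of 17 macrophage genes 1 rose, and 3 with DESeq2 and 3 with limma voom. Over all genes tested DESeq2 called 24.2% and limma voom 39.3%. Of 18 genes of inflammation and neutrophils 2 rose, both chemokines that attract monocytes.

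Ccl2 was at 2.66, 3.23, 0.933 and 1.27 CPM at BPA 2.5 and at 5.69, 3.54, 2.51 and 12.9 CPM at BPA 25 (log2 fold change 1.60 with SE 0.55, adjusted p = 0.038). Ccl12 was at 0.634 to 1.02 CPM and at 1.44, 3.68, 0.766 and 9.37 CPM (log2 fold change 2.16 with SE 0.73, adjusted p = 0.036). Library 4 of BPA 25 was highest for both, and without it the log2 fold changes were 0.98 (adjusted p = 0.22) and 1.24 (adjusted p = 0.24). Without BPA 2.5 library 1, 3 or 4 the adjusted p was 0.051, 0.12 and 0.10 for Ccl2 and 0.086, 0.087 and 0.062 for Ccl12. It was 0.054 for Ccl2 without BPA 25 library 1, 0.062 for Ccl12 without BPA 25 library 2, and 0.20 and 0.22 without BPA 2.5 libraries 1 and 3, so neither chemokine was stable.

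Of 15 fat cell genes 0 rose and 2 fell, near the 9.53% and 11.1% of all genes tested. The list's median turned from -1.01 to 0.69 without BPA 2.5 libraries 1 and 3. Slc2a4, the insulin-responsive glucose transporter, fell from 26.8, 42.6, 41.9 and 67.4 CPM to 16.4, 13.4, 15.7 and 24.7 CPM, with no overlap (log2 fold change -1.35 with SE 0.34, adjusted p = 0.0065), and it passed whichever library was left out and without libraries 1 and 3 (-1.63, adjusted p = 0.013). Pnpla2, a triglyceride lipase, fell from 135, 132, 189 and 178 CPM to 125, 98.4, 95.8 and 108 CPM (log2 fold change -0.57 with SE 0.14, adjusted p = 0.0066), and its adjusted p was 0.054 without BPA 2.5 library 3 and 0.057 without libraries 1 and 3. The fat cells' own level varied within both doses: Lpl, lipoprotein lipase, was at 177, 548, 276 and 109 CPM and at 1250, 206, 455 and 175 CPM (log2 fold change 0.91 with SE 0.60, adjusted p = 0.28), and the summed list lay at 555 to 1080 CPM and 598 to 1720 CPM. Its part in the 2 calls was not tested.

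Of 27 cell cycle genes 4 rose and 1 fell, where 9.53% and 11.1% of all genes did, and 3 rose and 1 fell without BPA 2.5 libraries 1 and 3. The median log2 fold change was 0.41, and 0.78 without them. Tyms, thymidylate synthase, was at 8.17, 15.6, 7.8 and 7.27 CPM at BPA 2.5 and at 28, 25.7, 23 and 21.8 CPM at BPA 25 (log2 fold change 1.34 with SE 0.25, adjusted p = 0.0011). Bub1, a kinase of the spindle checkpoint, was at 4.37, 7.93, 7.6 and 3.82 CPM and at 8.49, 25.9, 21.8 and 13.8 CPM (log2 fold change 1.56 with SE 0.38, adjusted p = 0.0050). Neither gene overlapped between doses, and both passed without BPA 2.5 libraries 1 and 3 (1.12, adjusted p = 0.029, and 1.59, adjusted p = 0.046). Mki67, the common marker of cycling cells, was at 19.9 to 53 CPM and at 22.7 to 60.4 CPM, and did not pass (log2 fold change 0.30 with SE 0.50, adjusted p = 0.71).

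Among 15 clock genes 1 rose and 3 fell, where 9.53% and 11.1% of all genes did. Without BPA 2.5 libraries 1 and 3 the counts were 1 and 1, where 4.64% and 3.06% of all genes rose and fell. Clock, the activator of the feedback loop, rose from 166, 146, 137 and 131 CPM to 234, 226, 203 and 208 CPM (log2 fold change 0.59 with SE 0.15, adjusted p = 0.0084). Nr1d1, the repressor REV-ERB alpha, fell from 49.1, 42.7, 54.5 and 51.1 CPM to 31.7, 18.2, 23.9 and 23.8 CPM (log2 fold change -1.02 with SE 0.24, adjusted p = 0.0040), though it overlaps Thra on the genome. The doses did not overlap for either gene, both passed whichever library was left out, and both passed without BPA 2.5 libraries 1 and 3 (0.034 and 0.043). Cry2, a repressor, and Dbp, an output factor, fell with less stability. Cry2 (log2 fold change -0.97 with SE 0.28, adjusted p = 0.015) was lost without BPA 25 library 2 (0.074) or 4 (0.067) and without BPA 2.5 libraries 1 and 3 (0.091). Dbp (log2 fold change -0.99 with SE 0.30, adjusted p = 0.021) was lost without BPA 2.5 library 3 (0.090), BPA 25 library 2 (0.088) or 4 (0.084), and BPA 2.5 libraries 1 and 3 (0.15). The labels give no time of day for the collections. Of 25 immediate early genes 1 passed: Jund, a subunit of the AP-1 factor, fell from 159, 232, 132 and 154 CPM to 95, 84.5, 89.9 and 90.7 CPM (log2 fold change -0.91 with SE 0.18, adjusted p = 0.0017).

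Of 20 genes mutated or altered in endometrial cancer 2 rose and 2 fell in edgeR, near the 9.53% and 11.1% of all genes tested. The counts were 5 and 3 in DESeq2 and 6 and 4 in limma voom, which called 24.2% and 39.3% of all genes in either direction. In edgeR 0 rose and 1 fell without BPA 2.5 libraries 1 and 3, where 4.64% and 3.06% of all genes did. Erbb2, a receptor tyrosine kinase of the EGF receptor family, fell from 123, 69.7, 102 and 75.3 CPM to 36.7, 50.2, 59.4 and 40.2 CPM (log2 fold change -0.99 with SE 0.24, adjusted p = 0.0048). Libraries 1 and 3 of BPA 2.5 were highest, and without them the log2 fold change was -0.62 (adjusted p = 0.15). Ctcf, the insulator protein, rose from 101 to 119 CPM up to 148 to 161 CPM, and neither gene overlapped between doses (log2 fold change 0.51 with SE 0.13, adjusted p = 0.0084; 0.066 without BPA 2.5 libraries 1 and 3).

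The remaining lists are given in brief. Of 29 splicing factors and nuclear RNA-binding proteins 5 rose and 2 fell (median 0.17), where 9.53% and 11.1% of all genes did. Without BPA 2.5 libraries 1 and 3, 1 of them rose and 0 fell (median 0.13), where 4.64% and 3.06% of all genes did. Of 27 genes of Wnt signalling 0 rose and 1 fell with all libraries (median -0.07). No gene passed in edgeR among 14 of uterine gland and luminal secretion, 9 of mesothelium, 6 of skeletal muscle and 10 of nerve and Schwann cells. At an unadjusted p of 0.05 these lists held 2, 1, 1 and 3 genes, DESeq2 called 1, 0, 0 and 2 and limma voom 1, 2, 1 and 4. The share over all genes tested was 24.2% in DESeq2 and 39.3% in limma voom.

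Several of the largest changes belonged to no list. Tmsb15b2, an actin-sequestering thymosin, rose from 2.6, 3.93, 3.73 and 2.8 CPM to 19.6, 12.3, 23.5 and 14.1 CPM (log2 fold change 2.41 with SE 0.38, adjusted p = 0.00051). Hbb-b1, a beta globin, was on the red blood cell list and rose from 11.7, 11.9, 18.8 and 6.12 CPM to 65.4, 53, 54.2 and 40.6 CPM (log2 fold change 2.13 with SE 0.41, adjusted p = 0.0013). All 4 BPA 25 libraries lay above the vehicle range of 8.62 to 19.3 CPM, but the other 5 tested genes of that list did not pass with all libraries. Without BPA 2.5 libraries 1 and 3, 2 of the 6 rose, Hbb-b1 and Hbb (1.67, adjusted p = 0.043), and the median was 1.36. Hbbl1, a globin gene outside the list, rose from 39.6, 30.2, 69.2 and 16.9 CPM to 180, 156, 158 and 115 CPM (log2 fold change 1.97 with SE 0.45, adjusted p = 0.0034). Near-identical globin genes make these values uncertain. H2ac21, a histone H2A gene, fell from 50.4, 7.39, 39.6 and 14.6 CPM to 3.14, 2.18, 2.02 and 2.63 CPM (log2 fold change -3.49 with SE 0.57, adjusted p = 0.00060), or by 2.13 without BPA 2.5 libraries 1 and 3 (adjusted p = 0.022). Histone genes too have near-identical copies.

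Cited4, a transcriptional co-activator, fell from 37.2, 18.2, 35.4 and 51.3 CPM to 4.84, 7.49, 8.21 and 8.78 CPM (log2 fold change -2.27 with SE 0.41, adjusted p = 0.00084). Its 4 BPA 25 libraries lay below the vehicle range of 21.9 to 36.7 CPM as well. Pcsk1n, an inhibitor of a prohormone convertase, fell from 98.5, 111, 90.5 and 87.1 CPM to 41.6, 17.2, 28 and 13.3 CPM (log2 fold change -1.95 with SE 0.44, adjusted p = 0.0033). Ephb6, a kinase-dead ephrin receptor, fell from 11.8, 34, 12 and 27.9 CPM to 4.84, 9.32, 8.28 and 6.88 CPM (log2 fold change -1.54 with SE 0.36, adjusted p = 0.0044). The doses did not overlap in any of these 3, and each passed without BPA 2.5 libraries 1 and 3.

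Faim, an inhibitor of apoptosis, is named outside the rule because of its p, chosen after its values were seen. It fell from 54.1, 31.7, 51.6 and 49.8 CPM to 17.5, 14.4, 18.1 and 19.9 CPM (log2 fold change -1.42 with SE 0.17, adjusted p = 4.1e-05), and it overlaps Cxadrl1. Inha, the inhibin alpha subunit of ovarian granulosa cells, fell from 2.85 to 6.69 CPM down to 0.487 to 2.12 CPM (log2 fold change -1.77 with SE 0.43, adjusted p = 0.0055), and the other 5 tested genes of ovary and corpus luteum did not pass. S100a6, a calcium-binding protein, fell from 4630, 22500, 3370 and 3460 CPM to 1630, 2660, 929 and 2240 CPM (log2 fold change -2.19 with SE 0.61, adjusted p = 0.013). Without BPA 2.5 library 2, the highest by far, its log2 fold change was -1.03 and its adjusted p 0.15.

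The vehicle libraries took no part in the contrast, and their position among the genes that passed is given as a description. The vehicle mean fell between the BPA 2.5 and BPA 25 means for 1063 of the 1268 genes that rose (83.8%) and for 1151 of the 1475 that fell (78%). Each gene's log2 CPM was also set against its mean over all libraries, and the median over the genes that rose was taken in each library. That median ran from -0.62 to -0.026 in BPA 2.5, from 0.34 to 0.53 in BPA 25, from 0.011 to 0.18 in the vehicle libraries, from 0.35 to 0.49 in BPA 250, from -0.24 to 0.12 in BPA 2500 and from -0.48 to 0.029 in BPA 25000. For the genes that fell it ran from -0.014 to 0.55 in BPA 2.5, from -0.48 to -0.25 in BPA 25 and from -0.46 to -0.26 in BPA 250, the range of BPA 25, while the 2 highest doses ran from -0.071 to 0.47. The genes were chosen on the BPA 2.5 and BPA 25 values, so their order in those groups is no result, and the values of the other groups are a description. Genes chosen for a gap between these 2 means will often hold the mean of another group between them. No such share was taken over all genes, so the shares of 83.8% and 78% do not place the vehicle between the doses.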

How the data were processed

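The authors deposited 1 table of raw counts of reads per gene, not normalised, for 17327 genes and 32 libraries of rat uterus RNA. The submitters' processing notes name bcl2fastq, TopHat, edgeR and build rn5; the versions and gene annotation, and whether counting used strand, were not stated there. Identifiers were matched to symbols through RefSeq's GRCr8 gene table, which served for names, spans and overlaps only (17167 matched, 160 did not). Promoters came from RefSeq's table of the same assembly.

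Groups came from the labels. The counts were modelled in edgeR 4.0.16 (R 4.3.3): filterByExpr (minimum count of 10, minimum total of 15) kept 13312 genes, TMM scaled them, and a quasi-likelihood model with 1 mean per group over all 32 libraries gave 24 residual degrees of freedom. BPA 25 minus BPA 2.5 was tested two-sided, with Benjamini-Hochberg adjustment over all genes tested. Means of log2 CPM used a prior count of 2. Levels are CPM on TMM-scaled library sizes, and floors cover counting error only. Libraries of a group differed by more than sampling noise.

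Genes were named by a rule: up to 12 each way with the largest change that passed and had all 4 BPA 25 libraries on the same side of the BPA 2.5 mean, at a mean log2 CPM of at least 1. To these came 8 each way from the fit without BPA 2.5 libraries 1 and 3, a panel, and up to 4 members of each of 32 lists; part of these genes is not named in the text or not reported here. The members and lists were chosen with earlier results of these data known, symbol families and promoter motifs were added after them, and the motifs are cores of longer forms tried first. Alternatives were run with limma 3.58.1 (voom), DESeq2 1.42.0, other scalings and filters, other sets of groups and without libraries. On simulated counts of 13312 genes this comparison called 46.9% of genes changed 2-fold, 83% of those changed 4-fold and 0.069% of those unchanged. Only 98 and 100 genes were changed 2-fold and 4-fold, genes varied independently, and the libraries of a group were alike. The real BPA 2.5 libraries were split, so these shares are a check of the method and no error rate for these data.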

Additional observations from a re-analysis of the deposited data

Results flagged for a closer look

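In 5 of the 134 groups of 4 libraries examined for the genes named, 1 library lay further from the other 3 than Dixon's test allows at 95%, where chance alone gives about 1 in 20. Rps27l was at 26.9 CPM in BPA 2.5 library 3 and at 16.8 to 18.1 CPM in the other 3. Krt15 was at 6.26 CPM in BPA 25 library 3 and at 2.46 to 2.86 CPM in the others. Tyms was at 15.6 CPM in BPA 2.5 library 2 against 7.27 to 8.17 CPM, S100a6 at 22500 CPM in the same library against 3370 to 4630 CPM, and Faim at 31.7 CPM there against 49.8 to 54.1 CPM. The calls of Rps27l, Tyms and Faim held whichever library was left out, and that of S100a6 did not.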

How the results depend on the processing

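The count of 2743 genes moved to 5228 with limma voom and sample weights, 197 with only the 2 groups in the fit, 1041 without BPA 2.5 libraries 1 and 3, 1647 without the 4 libraries that stand apart, and 14 without BPA 2.5 libraries 1 and 3 in a fit of only the 2 groups, an alternative chosen after seeing the data; it ran from 1520 to 3990 when single libraries were left out. The restricted fits hold fewer samples, and the cause of the other moves was not tested. DESeq2's size factors, no filter, a filter of 1 CPM in 4 of the 8 libraries, DESeq2, a robust spread and a threshold of 0.1 stayed within 1.5 times (2503 to 3967). Log2 fold changes changed sign without BPA 2.5 libraries 1 and 3, without the 4 libraries and in the 2-group fit without libraries 1 and 3, in that order, for Foxj1 (3.44, 3.42 and 3.41), Dnai2 (2.35, 2.35 and 2.34), Spag6l (5.44, 5.42 and 5.40), Drc1 (2.54, 2.52 and 2.52), Tekt1 (1.40, 1.38 and 1.37), Aqp4 (3.82, 3.81 and 3.80), Odad1 (1.14, 1.13 and 1.12) and Aurkb (4.23, 4.21 and 4.21). Esr1 changed sign with limma voom (0.03). Of the named genes, 32 lost their call with only the 2 groups in the fit and 19 kept it, among them Cox7c, Ndufb6, Atp5mg, Rps29, Krt5, Sts and Nr1d1; with limma voom Krt5, Ccl2, Ccl12, S100a6 and Ephb6 lost theirs. No paired analysis was possible because the labels give no replicate numbers that the groups share. At these depths 3 counts equal at most 0.254 CPM, which limits the lowest values.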
